A study of Homo sapiens with 4 samples.

Results

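The 44 genes described here encode the machinery of mitosis, from the kinase CDK1 and its cyclins to the kinetochore, the spindle, the condensed chromosome and the contractile ring. They were taken from a named list, by position on GRCh38, and all 44 were found among the 60554 genes of the count table and passed the minimum level described below, which 12662 genes passed. RNA of IGROV1-R10, a human ovarian cancer cell line, was sequenced from 4 libraries: the pull-down from cells transfected with biotin-carrying miR-491-5p, the pull-down from cells transfected with a biotin-carrying control miRNA from the worm Caenorhabditis elegans (cel-miR-65), the input of the miR-491-5p cells and the input of the control cells. Both miRNAs were given at 60 nM, nuclei were spun out of the lysate, 10% of it was kept as input, and the remainder stayed 4 h on streptavidin beads, which were washed 5 times. Each library pooled the RNA of 3 experiments, so each group had 1 library and no difference between libraries has a replicate check. The study asked which RNAs are bound to miR-491-5p in cells, and defined enrichment as the ratio of miR-491-5p to control in the pull-downs over the same ratio in the inputs.

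A cell enters mitosis when CDK1 bound to cyclin B is activated by CDC25 phosphatases, and Polo and Aurora kinases then drive spindle assembly. Kinetochores, which are built on nucleosomes that hold the histone variant CENP-A, bind spindle microtubules, and the spindle checkpoint holds back the anaphase-promoting complex until every chromosome is attached. The transcripts of these genes are made mainly late in the cell cycle in dividing cells.

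The sequences below are shown because the first is the miRNA used as bait and the others hold the promoter letters that most of these genes share. The mature miR-491-5p, from RefSeq on GRCh38.p14 (chr9:20716120-20716141, plus strand), is given 5′ to 3′ with its seed, bases 2 to 8, in capitals. The sequence of the worm miRNA was not used here.
hsa-miR-491-5p: aGUGGGGAacccuuccaugagg
The promoters of cell-cycle genes often hold a CHR element (cell cycle genes homology region) together with CCAAT boxes, which bind NF-Y. RefSeq gave 300-base promoter entries (250 bases before to 50 after the start) for 39 of the 44 genes. Searched on both strands, TTTGAA or TTTAAA lay in an entry of 35 of these 39 genes (89.7%), against 27.9% of 27305 genes with entries. CCAAT lay in 29 of the 39 (74.4%), against 39.7%, and both motifs lay in 24 (61.5%), against 11.2%. A match of letters is a description and not a bound site, and the member genes were chosen by function. The 120 bases before the RefSeq start are given for CENPA and KIF4A, which stand apart in the results, and for PLK1 and CCNB1 as well-known genes of the group, each 5′ to 3′ on the strand of the gene, with the CHR letters and CCAAT, read on either strand, in capitals. They lie at chr2:26785936-26786055, chrX:70289984-70290103, chr16:23678769-23678888 and chr5:69167030-69167149, all on the plus strand.
CENPA: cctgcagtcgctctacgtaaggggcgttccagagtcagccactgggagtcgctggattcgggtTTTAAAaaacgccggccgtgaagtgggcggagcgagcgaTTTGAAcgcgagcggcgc
KIF4A: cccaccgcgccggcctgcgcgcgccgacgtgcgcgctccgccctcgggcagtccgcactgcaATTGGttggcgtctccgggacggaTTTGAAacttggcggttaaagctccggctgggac
PLK1: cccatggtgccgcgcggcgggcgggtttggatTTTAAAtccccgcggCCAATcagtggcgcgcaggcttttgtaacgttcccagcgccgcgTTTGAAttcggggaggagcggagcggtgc
CCNB1: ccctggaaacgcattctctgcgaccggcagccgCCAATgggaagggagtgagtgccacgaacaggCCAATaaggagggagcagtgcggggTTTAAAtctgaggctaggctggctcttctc
Over the whole 300-base entry, CENPA had 2 CHR and 2 CCAAT matches, KIF4A 1 and 1, PLK1 3 and 1, and CCNB1 1 and 2.

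Total gene counts were 61705443 for the miR-491-5p pull-down, 62582646 for the control pull-down, 59588552 for the miR-491-5p input and 47679684 for the control input, and the 44 genes held 0.983%, 0.810%, 0.931% and 0.814% of them. Counts were divided by size factors, and all log2 ratios are on normalised counts plus 1. Genes whose normalised count averaged 50 or more over the libraries were kept, and a gene is called higher or lower where the difference reached 1.5-fold and its 95% counting interval excluded 0. The intervals cover counting error only, and without molecular identifiers a read is not an independent molecule, so many small differences have intervals that exclude 0. The epithelial markers (5 of 6 listed were matched) summed to between 72755 and 142619 normalised counts in the 4 libraries. The ovarian carcinoma markers (4 of 5, MSLN was not matched) summed to between 9905 and 14870, with none at 0. Most of that sum was PAX8, with 7950 and 9446 in the inputs of miR-491-5p and control. WT1 had 981 and 892 there, FOLR1 819 and 809, and MUC16 only 155 and 108. The 7 hepatocyte markers summed to 22.6 and 12.4 in the pull-downs of miR-491-5p and control and 8.36 in the input of miR-491-5p cells, against 3375 in that of control cells. The 5 fibroblast markers summed to 37.2, 37.3, 288.4 and 743.9 in the same order, and the 5 immune markers to 21.0, 16.0, 20.9 and 70.7. The sums of the epithelial, hepatocyte, fibroblast and immune markers were thus all highest in the control input, but not every marker followed its sum. In the inputs of miR-491-5p and control, KRT8 had 39171 and 50712 normalised counts and KRT18 42958 and 65351. EPCAM went the other way with 17518 and 12454, as did CDH1 with 390 and 242 and the fibroblast marker DCN with 46.0 and 25.7. The control input enters the input ratios, the enrichment and the control pull-down over input below. The part of these markers in those values was not tested.

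Per kilobase of exon, TOP2A, the topoisomerase that untangles sister chromatids, had the highest level of the group in every library, with 10677, 8579, 11348 and 8459 normalised counts per kilobase in the miR-491-5p pull-down, the control pull-down, the miR-491-5p input and the control input. CCNA2, which encodes cyclin A2, followed in the control input with 6934, then the spindle assembly factor TPX2 with 6576 and CCNB1, the gene of cyclin B1, with 6442. The lowest were CDC25C, a phosphatase that activates CDK1, with 184, and ESPL1, the gene of separase, with 216. The median of the group was 1976, 1533, 2325 and 2204 per kilobase in the same 4 libraries.

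In enrichment, the group as a whole lay close to all other genes, with 1 gene far outside. The transcript of CENPA, the centromeric histone H3 variant that marks where a kinetochore forms, was 9.09-fold lower with miR-491-5p. The median log2 enrichment of the 44 genes was 0.03, against 0.00 for all 12662 genes, and 27 of 44 lay above 0. NUSAP1 and PTTG1 were called higher, and CENPA, SMC2, SMC4 and CDC27 were called lower. With TMM scaling PTTG1 was below the 1.5-fold limit. With counts scaled to library totals SMC4 and CDC27 were no longer called lower and 12 genes of the group were called higher. Under that scaling 2760 of all 12662 genes were called higher and 1132 lower. The 6 called are 13.6% of the group, while 27.3% of all genes were called (13.2% higher and 14.0% lower). At 2-fold CENPA alone was called, lower, where 9.78% of all genes were (4.46% higher and 5.32% lower). The counting interval excluded 0 for 36 of the 44 genes (81.8%) and for 70.7% of all genes.

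**Figure D1:**
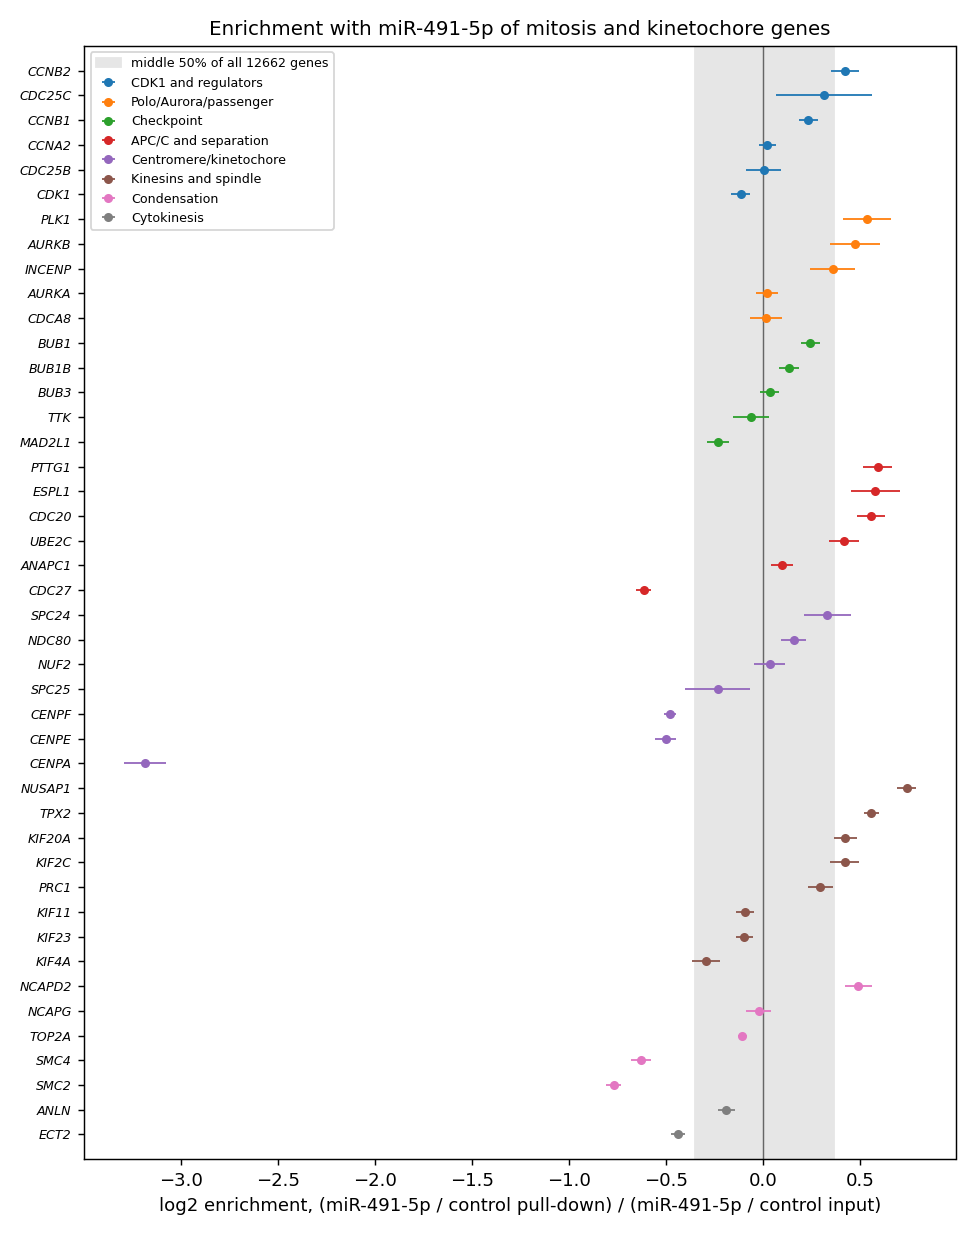
Log2 enrichment with miR-491-5p of the 44 genes (x axis), 1 gene per row, grouped and coloured by role; bars are 95% counting intervals and the grey band is the middle 50% of all 12662 genes. CENPA lies at -3.18, and the other 43 genes lie between -0.77 and 0.74.

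The CENPA transcript was set apart by the control beads. Its normalised counts were 1459 in the miR-491-5p pull-down and 13689 in the control pull-down, against 2673 in the miR-491-5p input and 2757 in the control input (1805, 15415, 2558 and 2146 raw counts). The inputs thus differed little, the control pull-down stood high above all other libraries, and the miR-491-5p pull-down was the lowest of the 4. The log2 enrichment was -3.18 (interval -3.29 to -3.08), the pull-down ratio -3.23 and the input ratio -0.04 (-0.13 to 0.04). Of all 12662 genes it had the 13th lowest enrichment and the 7th lowest pull-down ratio. Pull-down over input was -0.87 (-0.96 to -0.79) with miR-491-5p and 2.31 (2.25 to 2.38) with the control. Among all genes, 75 (0.592%) were called lower than input with miR-491-5p and higher than input with the control.

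The row read as CENPA is ENSG00000115163 (chromosome 2, 26764289 to 26801067, plus strand, exon length 1983 bases), and 17.1% of its exon bases lie outside the RefSeq gene. The name rests on an overlap of 0.23 of the joint span, and a stricter match would leave it unnamed. By span alone the row overlapped SLC35F6 more than CENPA, though SLC35F6 has a row of its own. The row also begins well before the RefSeq start of CENPA at 26786056, whose promoter is given above. Its first exon lies within SLC35F6, a solute carrier family gene, and reads that touch both genes were left out of the counts. SLC35F6 itself had 1925 normalised counts in the miR-491-5p pull-down and 2106 in the control pull-down, against 2284 and 3107 in the inputs of miR-491-5p and control, so this neighbour was lower in the control pull-down than in its input. Reads were counted without strand and per gene, so the exons that gave the control pull-down its counts were not resolved.

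**Figure D2:**
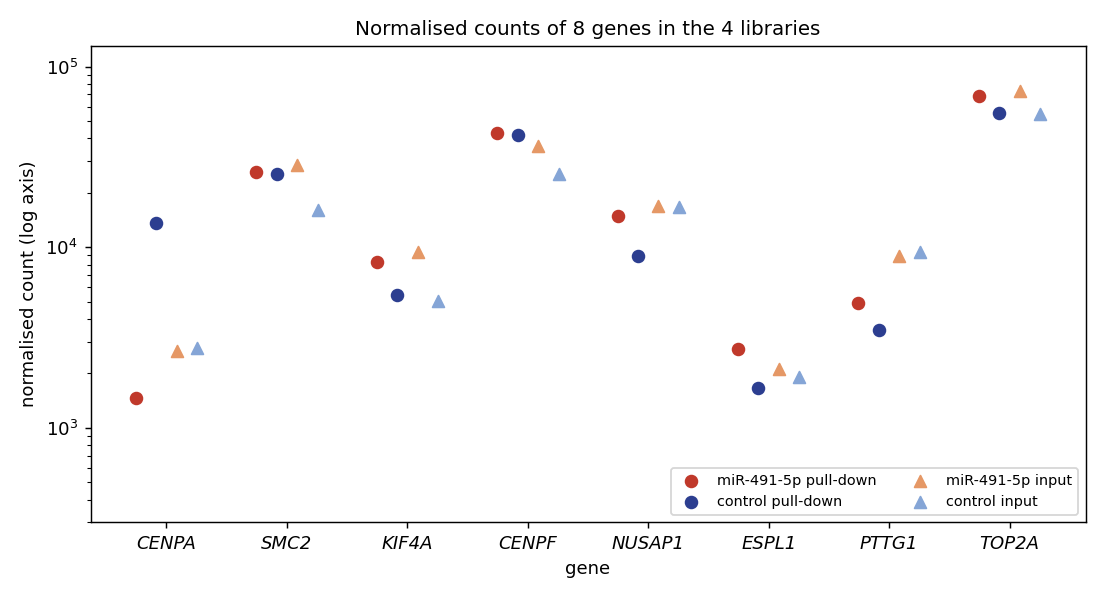
Normalised counts (log axis) of 8 genes in the 4 libraries, circles for pull-downs and triangles for inputs. For CENPA the control pull-down stands at 13689 and the other 3 libraries between 1459 and 2757, while SMC2 and KIF4A are lowest in the control input.

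Among CDK1 and its regulators no gene was called, and the log2 enrichment ran from -0.12 for CDK1 itself to 0.42 for CCNB2, the gene of cyclin B2, with a median of 0.13. CCNB1 had 10787 and 9160 normalised counts in the pull-downs of miR-491-5p and control, against 16526 and 16479 in the inputs, and an enrichment of 0.23. Both inputs of CCNB1 were equal within counting error and both pull-downs lay below them. CCNA2 (0.02) and CDC25B (0.00), a phosphatase that starts CDK1 activation, had intervals that held 0. CDC25C had 0.31, with the widest interval of the group (0.07 to 0.56).

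The Polo and Aurora kinases and their partners all lay above 0, with a median of 0.36. PLK1, the Polo kinase needed for spindle formation and exit from mitosis, had 2192 and 1456 normalised counts in the pull-downs of miR-491-5p and control, against 2671 and 2567 in the inputs. Its enrichment of 0.53 (0.41 to 0.66) came from the pull-downs. AURKB, the kinase of the chromosomal passenger complex, had 0.47, and INCENP, its scaffold, 0.36. CDCA8, which encodes borealin of the same complex, had 0.01, and AURKA, the centrosomal Aurora kinase, 0.02, both with intervals that held 0. None of the 5 was called.

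The 5 spindle checkpoint genes stayed near 0, with a median of 0.03. BUB1, a checkpoint kinase, had 0.24 and BUB1B, the gene of BubR1, 0.13. BUB3, their binding partner, and TTK, the kinase MPS1, had 0.03 and -0.06, with intervals that held 0. MAD2L1, whose protein MAD2 restrains CDC20, was lowest at -0.24.

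Of the 6 genes of the anaphase-promoting complex and of sister separation 5 lay above 0, and the median was 0.48. PTTG1, the gene of securin, the inhibitor of separase, had 4926 and 3477 normalised counts in the pull-downs of miR-491-5p and control, against 8901 and 9448 in the inputs. Both pull-downs lay far below both inputs, and the control pull-down was the lower, so its enrichment was 0.59 (0.52 to 0.66). PTTG1 has near-identical copies that can share its reads, which makes its value uncertain, and the value lies at the edge of the 1.5-fold limit, 0.58 on the log2 scale. ESPL1 had 2733 and 1670 in the pull-downs, against 2106 and 1921 in the inputs, and an enrichment of 0.58. The miR-491-5p pull-down of ESPL1 was the highest of its 4 libraries and the control pull-down the lowest. CDC20, an activator of the complex, had 5899 and 4292 in the pull-downs, against 7463 and 7975 in the inputs, and an enrichment of 0.55. UBE2C, its ubiquitin-conjugating enzyme, had 0.41 and the scaffold subunit ANAPC1 0.10. The core subunit CDC27 went the other way, with 16622 normalised counts in the miR-491-5p pull-down and 23173 in the control pull-down, against 26513 and 24124 in the inputs. Its enrichment of -0.62 (-0.65 to -0.58) had a pull-down ratio of -0.48 and an input ratio of 0.14, so both parts added. CDC27 and ANAPC1 have partial copies in the genome, so their values are uncertain.

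At the centromere and outer kinetochore, CENPE and CENPF lay below 0 and 3 of the 4 genes of the NDC80 complex above it. CENPE, a kinesin that carries chromosomes along microtubules, had 14221 and 13553 normalised counts in the pull-downs of miR-491-5p and control, against 11360 and 7641 in the inputs. CENPF, a protein of the fibrous corona, had 42920 and 41847, against 36511 and 25491. For both genes the pull-downs were nearly equal and the control input was the lowest library, so their enrichments of -0.50 and -0.48 came from the inputs. NDC80, NUF2, SPC24 and SPC25, the 4 subunits of the complex that grips microtubules, had 0.16, 0.03, 0.33 and -0.24, and the interval of NUF2 held 0. The names of NUF2, SPC24 and SPC25 rest on the looser match of positions.

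Among kinesins and spindle proteins NUSAP1, which bundles microtubules near chromosomes, had the highest enrichment of the group. It had 14961 normalised counts in the miR-491-5p pull-down and 8924 in the control pull-down, against 16819 and 16722 in the inputs. The inputs were level and the control pull-down stood below the other 3 libraries, with enrichment 0.74 (0.69 to 0.79) and the pull-down ratio at 0.75. TPX2 had 19550 and 15161 in the pull-downs, against 20786 and 23706 in the inputs, and an enrichment of 0.56, to which both parts added. KIF20A, a kinesin of the central spindle, and KIF2C, which takes microtubules apart at centromeres, each had 0.42, and PRC1, which crosslinks the central spindle, had 0.29, from 6863 and 6028 normalised counts in the pull-downs, with counts that an antisense gene overlapping it could affect. KIF11, the motor that pushes spindle poles apart, and KIF23, a centralspindlin motor, each had -0.10, and KIF4A, a motor of the chromosome arms and central spindle, had -0.30.

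Of the genes of chromosome condensation, SMC2 and SMC4, which encode the SMC core of condensin, had the lowest enrichment. SMC2 had 26162 and 25310 normalised counts in the pull-downs of miR-491-5p and control, against 28354 and 16091 in the inputs, and an enrichment of -0.77 (-0.81 to -0.73). Its partner SMC4 had 11481 and 12427, against 16733 and 11705, and an enrichment of -0.63 (-0.68 to -0.58). For both genes the pull-downs were close to each other and the control input was well below the miR-491-5p input, with input ratios of 0.82 and 0.52. The condensin subunit genes NCAPG, with an interval that held 0, and NCAPD2 had -0.02 and 0.49, so these lay above the SMC genes, and TOP2A had -0.11. Of the cytokinesis genes, ECT2, which activates RhoA at the division plane, had an enrichment of -0.44, with 26661 and 23778 normalised counts in the inputs of miR-491-5p and control, and ANLN, the gene of the ring scaffold anillin, had -0.19.

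In the pull-downs alone, miR-491-5p over control, 37 of the 44 genes lay above 0, with a median of 0.26, where 50.9% of all genes lay above 0 with a median of 0.01. NUSAP1, ESPL1, KIF4A and PLK1 were called higher and CENPA was called lower, which is 11.4% of the group against 20.7% of all genes (10.0% higher and 10.7% lower). At 2-fold CENPA was again the only gene called, against 5.67% of all genes (2.50% higher and 3.17% lower). The shift was thus small and broad. KIF4A had 8247 normalised counts in the miR-491-5p pull-down and 5407 in the control pull-down, a log2 ratio of 0.61. Its inputs differed in the same direction and by more, with 9375 for miR-491-5p against 5006 for control cells. ESPL1 had a pull-down ratio of 0.71. Below 0 beside CENPA and CDC27 lay ECT2, with 22411 normalised counts in the miR-491-5p pull-down and 27103 in the control pull-down, and CDCA8, with 4020 and 4507, followed by SMC4 (-0.11), MAD2L1 (-0.11) and SPC25 (-0.01). Every one of the 6 genes of CDK1 and its regulators and every one of the 8 kinesin and spindle genes lay above 0. With counts scaled to library totals the median of all genes moved up by 0.16, and the group's median was 0.41.

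The inputs measured RNA of the transfected cells after removal of nuclei, and so not the level in whole cells. In them 33 of the 44 genes were above 0 with miR-491-5p. The median of the group was 0.13, against -0.01 for all genes, of which 49.0% were above 0. In bulk RNA, a change in the number of cells in mitosis and a change in RNA per cell cannot be told apart. KIF4A and SMC2 were called higher and no gene was called lower, which is 4.55% of the group against 6.48% of all genes (3.44% higher and 3.03% lower). At 2-fold none was called, against 1.24% (0.727% higher and 0.513% lower). KIF4A had the highest input ratio, 0.91 (0.85 to 0.96), and SMC2 followed at 0.82. CENPE (0.57), CENPF (0.52), SMC4 and TOP2A (0.42) came next, below the 1.5-fold limit. All 5 condensation genes lay above 0, with a median of 0.42. The lowest were TPX2, with 20786 normalised counts in the miR-491-5p input and 23706 in the control input, and CDCA8, with 4854 and 5498, then PRC1, with 8377 and 9021, and CDC20. Their log2 input ratios of -0.19, -0.18, -0.11 and -0.10 were the lowest of the 44, all within 1.5-fold. CDK1 (0.24), AURKA (0.13), PLK1 (0.06) and CCNB1 (0.00) lay between.

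**Figure D3:**
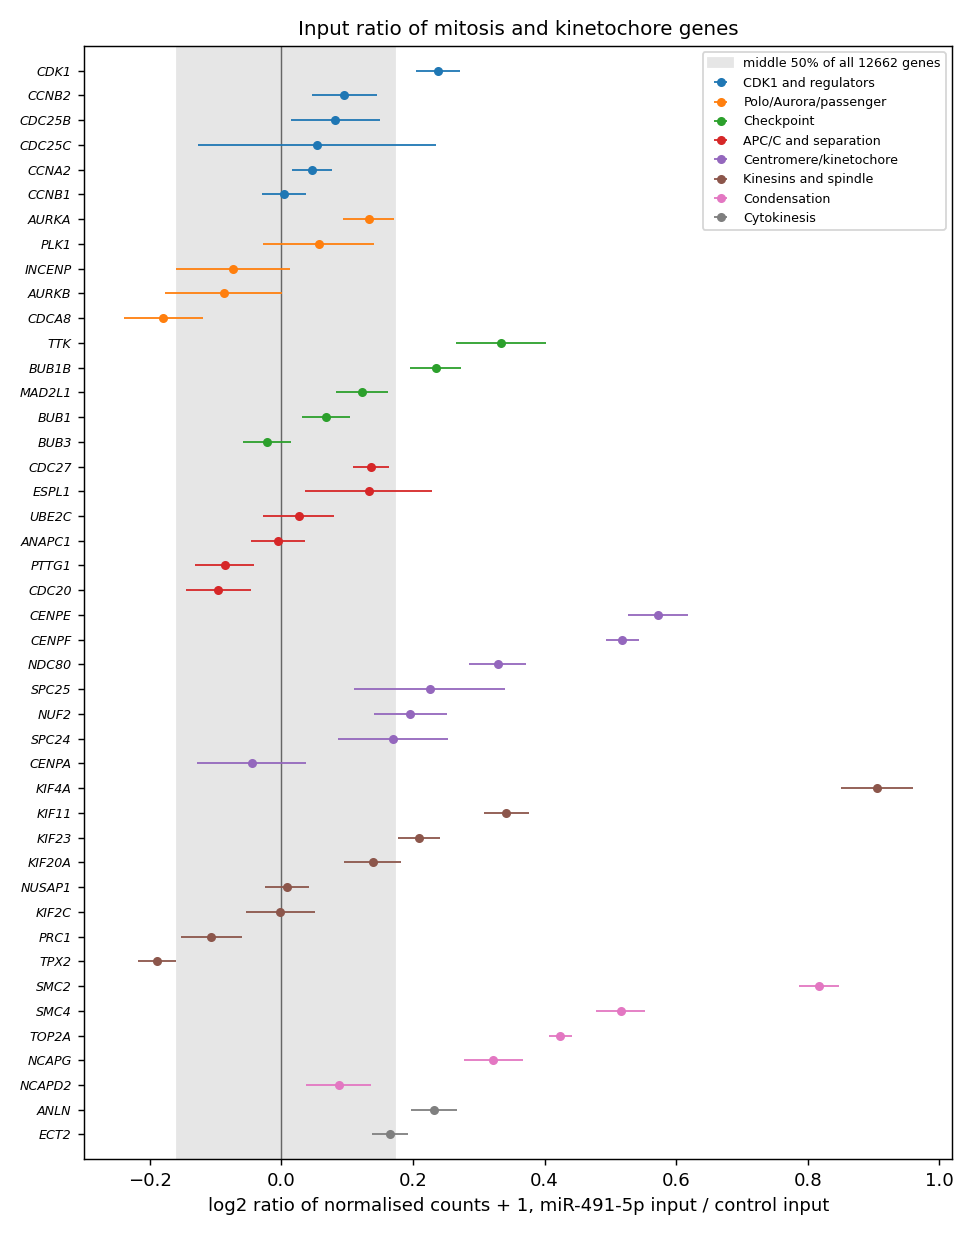
Log2 input ratio, miR-491-5p over control, of the 44 genes (x axis), 1 gene per row, grouped by role; bars are 95% counting intervals and the grey band is the middle 50% of all 12662 genes. KIF4A (0.91) and SMC2 (0.82) lie highest and TPX2 (-0.19) lowest.

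Pull-down over input shows which transcripts the beads held with either miRNA. With miR-491-5p 39 of the 44 genes were below their input, where 60.2% of all genes were. The median was -0.29 against -0.15 for all genes. CENPA, PTTG1, CDK1, SPC25, CDC27, MAD2L1 and CCNB1 were called lower and none higher, where 20.8% of all genes were called lower and 12.5% higher (33.3% in all). None was called at 2-fold, against 10.3% of all genes (5.34% higher and 4.96% lower). ESPL1 was the highest, at 0.38, then CENPE at 0.32, CENPF at 0.23, ANLN at 0.16 and INCENP at 0.10. With the control 35 of the 44 genes were below their input, where 57.9% of all genes were. The median was -0.42 against -0.15 for all genes. Of the group, 16 were called lower and 4 higher, where 26.9% and 17.7% of all genes were (44.6% in all). At 2-fold CENPA was called higher and PTTG1 lower, against 18.6% of all genes (8.61% higher and 10.0% lower). CENPA (2.31), CENPE (0.83), CENPF (0.72) and SMC2 (0.65) were the 4 called higher. PTTG1 (-1.44), NUSAP1 (-0.91), CDC20 (-0.89), AURKB (-0.87), CCNB1 (-0.85) and PLK1 (-0.82) were the lowest. With counts scaled to library totals all genes moved up by 0.32 with miR-491-5p but 0.14 with the control, and the median of the group came to 0.03 with miR-491-5p and to -0.28 with the control, so the sign of the group's median with miR-491-5p depends on the scaling. Under it none of the 44 was called lower and 2 were called higher with miR-491-5p, so all 7 calls above were lost. Of all 12662 genes, 935 were called lower and 3159 higher with miR-491-5p under that scaling.

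**Figure D4:**
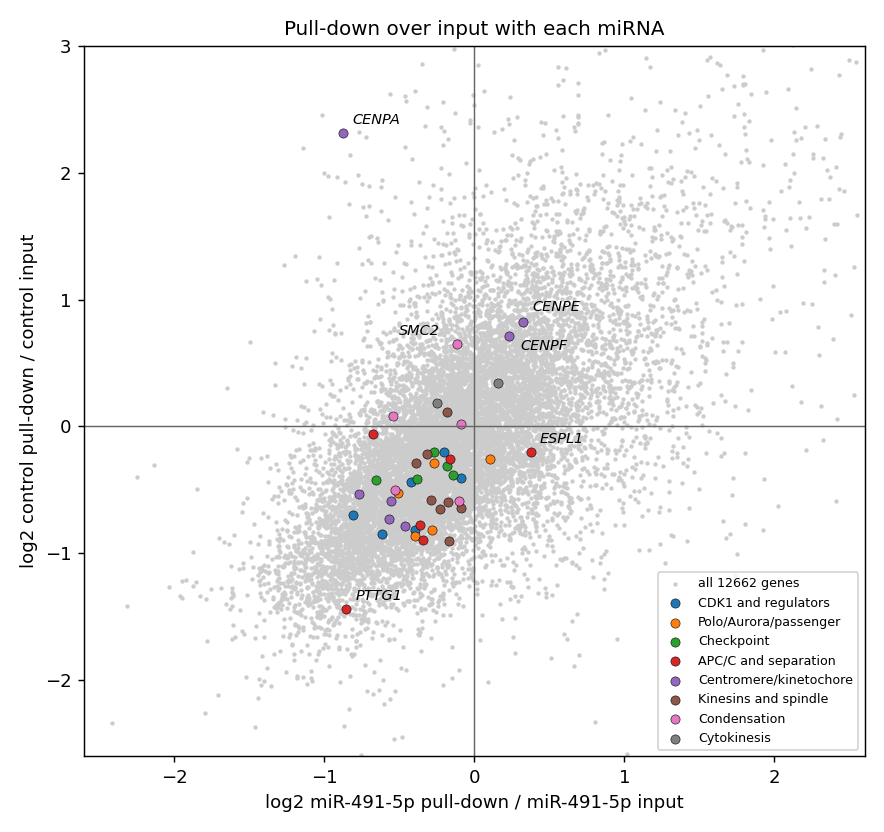
Log2 pull-down over input with miR-491-5p (x axis) and with the control (y axis) for the 44 genes, coloured by role, and for all 12662 genes in grey; a few grey points lie outside the axes. SMC2, SMC4, ECT2, KIF4A, TOP2A and CENPA lie below 0 with miR-491-5p and above 0 with the control, CENPA the farthest (-0.87 and 2.31).

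Each transfection gave a pull-down and an input from shared lysates, so pull-down against input was also tested over both transfections. The test was edgeR's quasi-likelihood test, with the transfection as a block and 1 residual degree of freedom. The blocks differ in miRNA, so differences between the miRNAs enter the residual. The p-values of this test therefore do not measure variation between replicates. PTTG1 was the only gene of the group to pass a false discovery rate of 0.05. It was lower in the pull-downs, by a log2 change of -1.15 with an edgeR adjusted p of 0.022, and lower in both pairs. That is 1 of 44 genes (2.27%), where 15.5% of all genes passed (5.33% higher and 10.2% lower). At an unadjusted p under 0.05 there were 14 lower and 1 higher, CENPE, together 34.1% of the group against 34.3% of all genes. CDK1 had 10506 and 9651 normalised counts in the pull-downs of miR-491-5p and control, against 18446 and 15637 in the inputs. Its change of -0.75 had an edgeR adjusted p of 0.06, and CCNB1's of -0.73 one of 0.067. NDC80 had 7675 and 5486 in the pull-downs, against 11410 and 9085 in the inputs, and an edgeR adjusted p of 0.079. CENPA, whose pairs went opposite ways, had an edgeR adjusted p of 0.45.

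The place of a gene on the beads went with its exon length, which counts all exon bases annotated for the gene and not those of a single transcript. Across the 43 genes other than CENPA, log2 exon length and pull-down over input had r = 0.48 and rho = 0.45 with miR-491-5p, against r = 0.69 and rho = 0.71 with the control, and with CENPA the values were r = 0.51 and rho = 0.48, and r = 0.35 and rho = 0.60. Over all 12662 genes they were r = 0.19 and rho = 0.25 with miR-491-5p, against r = 0.21 and rho = 0.29 with the control. The 103 other mitotic genes described below were like the group, with r = 0.52 and rho = 0.57 with miR-491-5p, against r = 0.52 and rho = 0.55 with the control. These correlations are across genes, which share libraries and are not independent replicates, and they are given as a description. The 15 shortest genes of the group (exon length 1286 to 3362 bases) had median pull-down over input values of -0.42 with miR-491-5p, against -0.78 with the control, while the 15 longest (5525 to 13327 bases) had -0.14 and -0.20. All genes of the first range had medians of -0.35 and -0.48, and all genes of the second -0.05 and 0.03. PTTG1, CDC20, AURKB and UBE2C are among the short ones, and CENPE and CENPF among the longest, with exon lengths of 9444 and 11690 bases. CENPA, at 1983 bases, was the exception on the control beads. The input ratio went with length too, with r = 0.42 and rho = 0.45 over the 44 genes. It had r = 0.25 and rho = 0.29 over the 103 other mitotic genes and r = 0.03 and rho = 0.07 over all genes. The part of length in these differences was not tested.

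**Figure D5:**
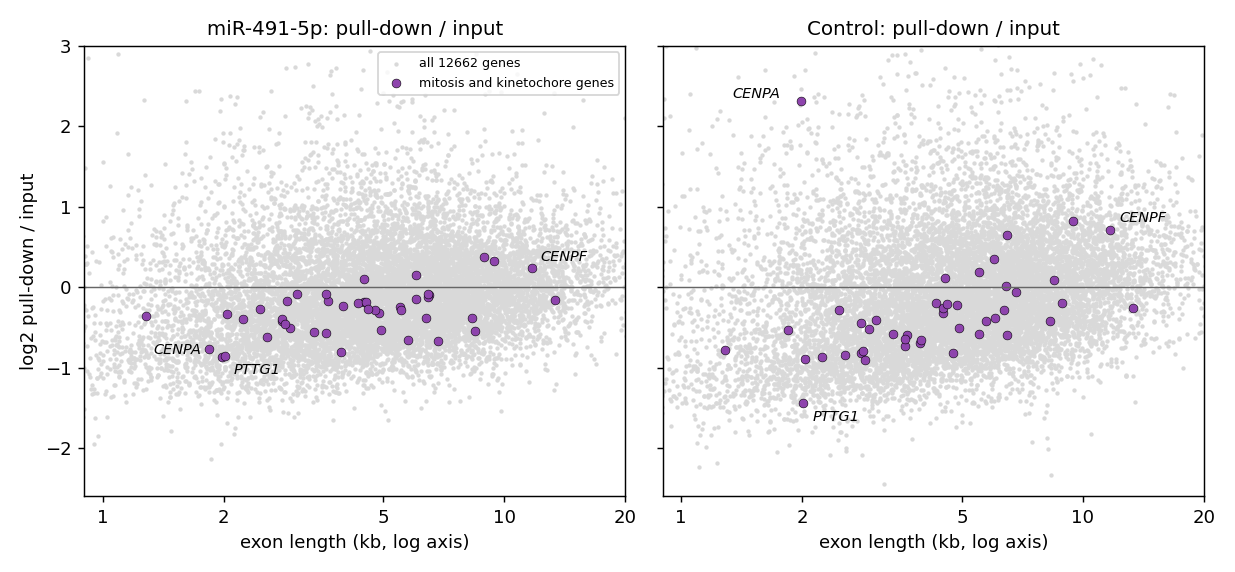
Log2 pull-down over input (y axis) against exon length in kilobases (x axis, log scale) with miR-491-5p (left) and the control (right), for the 44 genes in purple and all 12662 genes in grey; a few grey points lie outside the axes. CENPF, among the longest, lies above 0 in both panels and the short PTTG1 below 0 in both, while CENPA, as short as PTTG1, lies at 2.31 on the control beads.

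A longer list of 106 other mitotic genes, of which 103 were matched, gave the setting. Their median enrichment was -0.08, with 13 called higher and 12 called lower, which is 24.3% of the list against 27.3% of all genes. ANAPC13, a small subunit of the anaphase-promoting complex, was highest at 1.92, with 3085 and 1321 normalised counts in the pull-downs of miR-491-5p and control, against 1726 and 2793 in the inputs. It was followed by CENPT, which links centromeric chromatin to the NDC80 complex, at 1.62, the kinesin KIF18B at 1.21, FZR1, the CDH1 activator of the complex, at 1.16, the kinetochore gene PMF1 at 0.92 and UBE2S, which extends ubiquitin chains for the complex, at 0.77. The list of 15 other anaphase-promoting complex genes, which holds FZR1, UBE2S and FBXO5 beside the subunits, had a median of 0.30. Of the 15 genes, 12 lay above 0, 4 were called higher and none lower. Among all genes 50.1% lay above 0, 13.2% were called higher and 14.0% lower. RACGAP1, the partner of KIF23 in centralspindlin, was lowest at -1.36, with 9458 and 13626 in the pull-downs, against 11791 and 6624 in the inputs. MAD2L1BP, which helps to switch the checkpoint off, had -1.30, the cohesin regulator PDS5B -1.03, SPDL1, which recruits dynein to kinetochores, -0.88 and CENPQ, an inner kinetochore gene, -0.80. The 14 other condensin and cohesin genes had a median enrichment of -0.31, with 12 below 0, where 49.9% of all genes lay below 0. Their median input ratio was 0.22, with 13 above 0, beside 0.42 for the 5 condensation genes of the group. In the edgeR test of pull-down against input over both transfections, 3 of the 103 genes were higher and 13 lower, which at 15.5% is the share of all genes that passed. The 3 higher were ASPM, a spindle pole gene, with a log2 change of 1.15, NIPBL, the cohesin loader, with 1.18, and KNL1, a kinetochore scaffold, with 0.85. Among the 13 lower were CKS1B, a CDK-binding subunit, at -1.13, and the small anaphase-promoting complex subunits ANAPC11 and ANAPC16, at -1.06 and -1.04.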

How the data were processed

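Cytoplasmic lysates of transfected IGROV1-R10 cells and the RNA bound to streptavidin beads were sequenced in 4 libraries, 1 per group. The deposited table holds raw counts per gene on GRCh38, made by the authors with featureCounts 1.5.0-p1 on GENCODE 24, per the file headers, without strand, without duplicate reads, and with reads that overlap several genes left out. STAR, featureCounts 1.5.0 and DESeq2 1.10.1 are named in the submitters' processing notes. The kit marks strand but the counting did not use it, so reads of a gene and of an antisense partner cannot be told apart.

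The table holds gene IDs only, so genes were named by position against RefSeq GRCh38.p14 (overlap of at least 0.2 of the joint span, a lead of 0.1 over the next row and at least 70% of exon bases inside the RefSeq gene). The stricter match asked for an overlap of 0.5 and an end within 1000 bases, which 40 of the 44 genes met. Counts were divided by DESeq2 size factors (DESeq2 1.42.0, R 4.3.3), and 1 was added before log2. Genes averaging 50 or more normalised counts were kept. Intervals are 1.96 counting standard errors, from 1 over each count plus 0.5. Pull-down against input over both transfections was tested with edgeR 4.0.16 (glmQLFit and glmQLFTest, Benjamini-Hochberg adjustment, threshold 0.05), checked on simulated data. With 1 library per group no other difference was tested. Alternatives were TMM, total counts, a pseudocount of 5, a minimum of 10 or none, a stricter match, a 2-fold limit and DESeq2.

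The 44 genes, the longer mitotic list and the markers were chosen with earlier results of these data known. Counts in each library are given for the genes at either end of each comparison (6 for enrichment, 4 for the others) and for genes called in enrichment. Of the markers, CLDN4 and MSLN were not matched, and of the other mitotic genes CENPW, MIS18A and PKMYT1. A gene of the longer mitotic list is not reported here.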

Additional observations from a re-analysis of the deposited data

Results flagged for a closer look

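CENPA moved in opposite directions on the beads of the 2 transfections: its log2 pull-down over input was -0.87 with miR-491-5p, against 2.31 with the control. Each value comes from 1 pull-down and 1 input library, and the difference was not tested. Of all 12662 genes, 75 (0.592%) were lower by 1.5-fold with miR-491-5p but 1.5-fold higher with the control, and 82 (0.648%) showed the reverse.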

How the results depend on the processing

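No paired analysis was possible because each group had 1 library and the labels carry no replicate numbers, beyond the block for transfection already in the edgeR test, and no library could be left out of a group. With counts scaled to library totals the median of all genes moved by 0.18 in enrichment, 0.16 in the pull-down ratio, 0.32 in pull-down over input with miR-491-5p, 0.14 with the control and -0.02 in the input ratio. Under that scaling the group's enrichment had a median of 0.21, with 12 genes called higher and 2 lower. Of all 12662 genes, 2760 were called higher and 1132 lower. The group's pull-down ratio had a median of 0.41 with 12 higher, where 2197 of all genes were called higher and 851 lower. The group's pull-down over input had a median of 0.033 with miR-491-5p (2 higher, 0 lower), against -0.28 with the control (10 lower). Of all genes, 3159 were called higher and 935 lower with miR-491-5p, against 2770 higher and 2554 lower with the control. The edgeR test called 1090 genes higher and 400 lower, 1 of the 44 higher. The share of calls that were higher became 70.9% in enrichment (48.5% with size factors), 72.1% in the pull-down ratio (48.5%), 77.2% in pull-down over input with miR-491-5p (37.6%), against 52.0% with the control (39.6%). With TMM 1 gene of the group was called higher in enrichment. At 2-fold enrichment had 0 higher and 1 lower, the pull-down ratio 0 higher, the input ratio 0 higher, pull-down over input with miR-491-5p 0 lower, and with the control 1 higher and 1 lower. With a minimum of 10, the group's median minus that of all genes was -0.24 with miR-491-5p but -0.40 with the control, and edgeR called 1114 genes higher. With no minimum these were -0.33, -0.46 and 1624, and edgeR called 3 of the 44 lower, while DESeq2 called 2 lower. Without CENPA, chosen after seeing the data, and under the stricter match, the pull-down ratio had 0 lower. Beyond scaling and the number of genes tested, the cause of these changes was not tested. With 1 library per group, depth sets only the counting error.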
